A study of Mus musculus with 12 samples.

Results

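Contrast-induced acute kidney injury is a sudden loss of kidney function after an iodinated X-ray contrast agent. In this comparison, kidney RNA of injured mice labelled as Il33 knockout was set against that of injured wild-type C57BL/6 mice, gene by gene. It holds 6 of the 12 libraries of the series: 3 wild-type and 3 knockout kidneys, each from its own male mouse, aged 8 weeks, and all labelled as the same batch. Every mouse had been left with a single kidney 3 weeks earlier, was deprived of water for 24 h, was given the loop diuretic furosemide, and 20 min later received the contrast agent iodixanol through the tail vein, with the kidney taken 24 h after that. Both groups carry the injury and no group without contrast is among the samples analysed here, so the values tell how injured kidneys differ and not how far either group stands from an uninjured one. The labels give neither the design of the knockout allele nor whether the wild-type mice were littermates. The genes described are those with a mean of at least 0.5 FPKM (fragments per kilobase of transcript, scaled to the fragments mapped in the library) over the 6 libraries, 14513 of the 31719 listed.

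IL-33 is a cytokine of the interleukin-1 family that sits in the nucleus of endothelial, stromal and some epithelial cells and leaves them when they are damaged. It binds the receptor ST2 (encoded by Il1rl1) together with the accessory chain IL1RAP, and signals through MyD88, IRAK kinases and TRAF6 to NF-kB and MAP kinases, mostly in type 2 innate lymphoid cells, regulatory T cells, mast cells and macrophages. In the kidney, contrast agents mainly harm the tubules. Injured tubule cells lose transporters and metabolic enzymes and switch on genes such as Havcr1 (KIM-1), Lcn2 (NGAL) and Krt20. The study lists IL-33 signalling, tubular injury and ferroptosis, a cell death through iron-dependent lipid peroxidation, among its questions.

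Changes below are the labelled knockouts' mean minus that of wild type in log2(FPKM + 1). This scale makes changes at low FPKM look smaller than they were. A gene with a mean below 0.5 FPKM in wild type reached the level tested through the labelled knockouts, so it could only be a rise. In the same way, a gene below 0.5 FPKM in the labelled knockouts could only be a fall. Counts of gene groups below include such genes. The words "rose" and "fell" are used for genes with a limma adjusted p under 0.05. SE is limma's moderated standard error, other errors are SD, and n = 3 libraries in each group. Kidney markers were present in every library: Umod, made in the thick ascending limb, was at 1382, 1942 and 1626 FPKM in wild type against 2209.9, 2866 and 2156 FPKM in the labelled knockouts, and Kap, a protein of the male proximal tubule, stood between 7985 and 15661 FPKM. Xist, which is transcribed in females, was at most 0.0151 FPKM in any library. Per library, FPKM summed to between 385124 and 420279, 11765 to 12657 genes reached 1 FPKM, and mitochondrially encoded genes took 24.1% to 29.2% of the sum. FPKM does not carry sequencing depth, so the depth behind each value is unknown.

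Il33 itself was low. Wild-type libraries 1, 2 and 3 had 1.71, 1.13 and 3.64 FPKM, and the labelled knockouts 1.14, 0.616 and 1.02 FPKM. Wild-type library 3 was highest, and the groups overlapped because wild-type library 2 lay just below knockout library 1. The difference did not pass (-0.65 ± 0.28 (SE), adjusted p = 0.099, exact two-sided permutation p = 0.2, where 0.1 is the smallest that 3 against 3 allow), although it did when wild-type library 2 was left out (-0.89, adjusted p = 0.035), after quantile normalization (-0.74, adjusted p = 0.0395), and in a fit blocked on replicate number (-0.65, adjusted p = 0.0408). A value per gene does not show which exons the remaining reads cover, so the libraries are called labelled knockouts throughout. Il1rl1, which encodes the receptor, was at most 0.037 FPKM in every library and below the level tested, and the co-receptor Il1rap was at 0.417, 0.333 and 0.489 FPKM against 0.730, 0.642 and 0.743 FPKM without passing (0.27 ± 0.11 (SE), adjusted p = 0.0784).

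Much of the transcriptome differed between the groups. With limma and Benjamini-Hochberg adjustment over all 14513 genes, 3226 genes rose (22.2%) and 2445 fell (16.8%), together 5671 (39.1%). Of these, 897 rose and 639 fell by at least 2-fold on the tested scale, and 150 rose and 135 fell by at least 4-fold. Every count of gene group members below that comes from this fit has these shares as its background. Counts that leave out a library or use another setting have the totals of that setting as theirs. The median change over all genes was 0.04. Without knockout library 1 the counts came to 2128 higher and 1550 lower, without knockout library 2 to 2238 and 1682, and without knockout library 3 to 2127 and 1604. They came to 2779 and 2376 without wild-type library 1, 3125 and 2670 without library 2, and 3851 and 2241 without library 3. Median-of-ratios scaling gave 2959 and 2997. With no filter on low values, over all genes not at 0 in every library, 3100 were higher and 2131 lower.

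**Figure D1:**
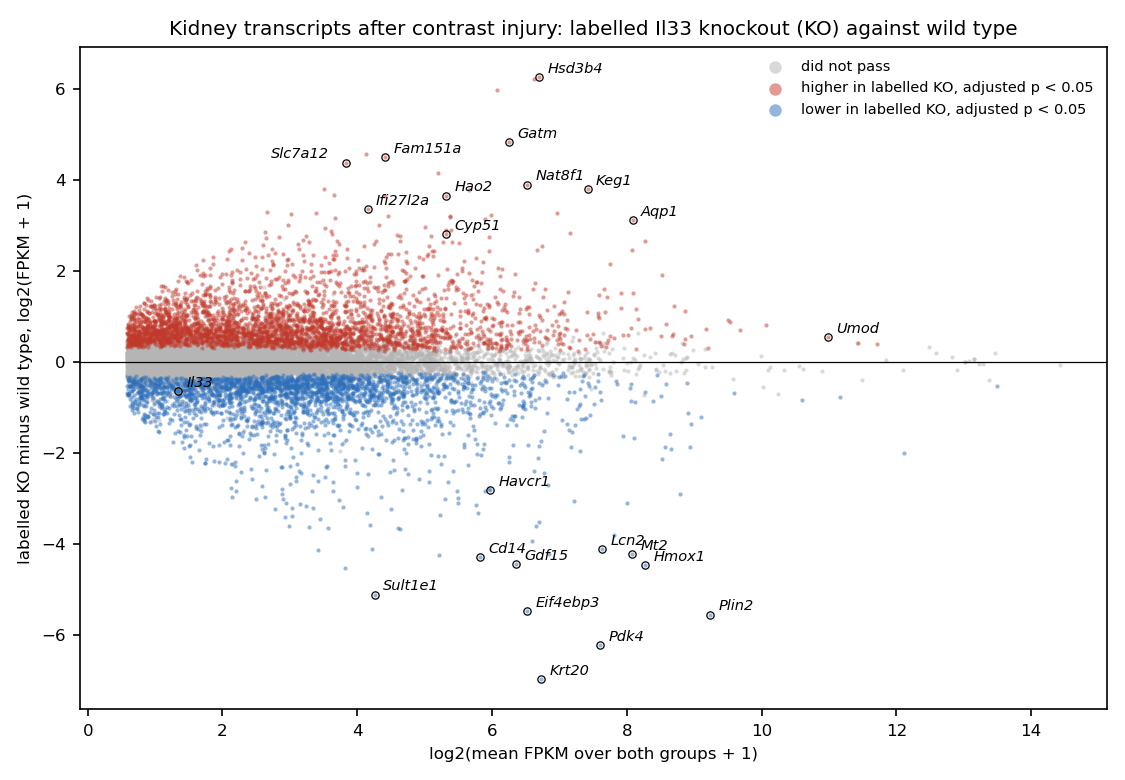
Change (labelled knockout minus wild type, log2(FPKM + 1)) against mean level (log2 of mean FPKM + 1) for the 14513 genes tested, 1 point per gene, with 3226 higher genes in red, 2445 lower genes in blue and the rest in grey. Krt20, Pdk4 and Plin2 stand lowest and Hsd3b4 and Gatm highest among the circled genes.

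The 6 libraries split by label. The first principal component of the tested genes carried 78.1% of the variance, and correlations across genes ran from 0.973 to 0.977 among wild-type libraries, from 0.989 to 0.991 among labelled knockouts and from 0.884 to 0.926 between groups. The wild-type libraries varied more, with a median SD of log2(FPKM + 1) over genes of 0.197 against 0.0891. Library 1 was the wild type farthest from the labelled knockouts for 2307 of the 3226 higher genes. Wild-type library 2 was the nearest for 1330 of the 2445 lower ones. Groups did not overlap for 7922 genes (54.6% of those tested, 30.2% higher and 24.3% lower), among them 5652 of the 5671 that passed.

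Krt20, Plin2 and Pdk4 were among the genes with the largest falls. Krt20, a keratin that appears in injured tubules, was at 349, 56.1 and 227 FPKM in wild type against 0.366, 0.359 and 0.239 FPKM in the labelled knockouts (-6.97 ± 0.58 (SE), adjusted p = 0.000149). Wild-type library 2, with the lowest wild-type level, was still far above all labelled knockouts. Plin2, which coats lipid droplets, was at 1352, 1097 and 1088 FPKM against 22.9, 24.7 and 24.3 FPKM (-5.56 ± 0.11 (SE), adjusted p = 3.06e-07), and Pdk4, a kinase that holds back glucose oxidation, at 453, 341 and 359 FPKM against 3.40, 3.82 and 5.33 FPKM (-6.22 ± 0.16 (SE), adjusted p = 1.29e-06). For both genes the wild-type libraries lay close to each other and far above the labelled knockouts. The estrogen sulfotransferase gene Sult1e1 was at 56.9, 22.9 and 29.05 FPKM in wild type but is listed at 0 in all labelled knockouts, so no fold is given. Krt20 and Sult1e1 reached the level tested through wild type, so they could only be falls. Other large falls were those of Eif4ebp3, Slc6a19os, Hmox1, Gdf15, Cd14, Plk3, Mt2, Fosl1, Lcn2 and Tnfrsf12a, with changes between -5.47 and -3.94. Slc6a19os lies antisense to the amino acid transporter gene Slc6a19, whose change was 0.03. The libraries are strand-specific per the labels, but how strand was used in counting is not given in the sources used here.

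Hsd3b4, Gatm and Fam151a were among the genes with the largest rises. Hsd3b4, a steroid-metabolising enzyme of the kidney, was at 1.21, 1.88 and 1.95 FPKM in wild type against 192, 204 and 214 FPKM in the labelled knockouts (6.26 ± 0.13 (SE), adjusted p = 3.06e-07). The predicted genes Gm10681 and Gm4450 of the same family rose by 6.21 and 5.99, and the split of reads among these near-identical copies is uncertain. Gatm, which makes the creatine precursor guanidinoacetate in the proximal tubule, went from 4.02 ± 0.392 to 147 ± 45.6 FPKM (4.83 ± 0.23 (SE), adjusted p = 1.82e-05), and Fam151a from 0.787 ± 0.104 to 39.8 ± 5.82 FPKM (4.50 ± 0.13 (SE), adjusted p = 2.43e-06). Slc7a12, an amino acid transporter that is higher in female kidneys, was at 0.0363, 0.145 and 0.337 FPKM against 13.2, 21.1 and 44.9 FPKM and rose in all labelled knockouts, with a spread of several fold among them. Other large rises were those of Hsd3b2, Nccrp1, Nat8f1, Keg1, Acmsd, Sostdc1, Hao2, Nnt, Ifi27l2a and Slc10a2, with changes between 3.27 and 4.57. Nnt is listed under 2 gene models that moved in opposite directions, and their sum was 9.92 ± 3.30 FPKM in wild type against 37.9 ± 1.67 FPKM in the labelled knockouts, with no overlap. Hao2, a peroxisomal hydroxyacid oxidase, went from 4.88 ± 0.354 to 73.2 ± 2.54 FPKM. Slc7a12 and Hsd3b2 reached the level tested through the labelled knockouts, so they could only be rises.

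Tubular injury markers were lower as a group in the labelled knockouts. Of 37 listed genes 35 were tested. Of these, 26 fell and 3 rose, with a median change of -1.82. Havcr1, which encodes the injury molecule KIM-1, was at 84.00, 78.6 and 161 FPKM in wild type against 26.9, 12.04 and 7.45 FPKM in the labelled knockouts (-2.83 ± 0.44 (SE), adjusted p = 0.00212). Lcn2, which encodes the iron-binding protein NGAL, was at 230.1, 291 and 608 FPKM against 16.53, 24.2 and 16.6 FPKM (-4.12 ± 0.34 (SE), adjusted p = 0.000144). Wild-type library 3 held the highest level of both, and neither gene overlapped between groups. Clu (clusterin) went from 419 ± 3.03 to 130.5 ± 8.02 FPKM, Tnfrsf12a, the receptor for the cytokine TWEAK, from 179.9 ± 38.3 to 10.6 ± 0.872 FPKM, and the repair transcription factor gene Sox9, named after its values were seen, from 13.1 ± 7.38 to 0.201 ± 0.0744 FPKM. Krt20, Sox9 and Areg, all in this list, reached the level tested through wild type, so they could only be falls. The members that rose were Itgb6 (1.51), Prom1 (0.83) and Vim (0.76). The genes that did not pass were Anxa1, Anxa2, Krt19, S100a6, Timp1 and Vcam1. The fibrinogen genes Fga, Fgb and Fgg, which injured tubules switch on, fell together by changes of -3.52, -2.69 and -3.06; Fgg went from 264 ± 23.3 to 31.50 ± 9.80 FPKM. The list of complement and acute phase genes held 7 rises and 6 falls among 18 tested. Besides the fibrinogens, the acute phase genes Serpina3n (-1.98), Lbp (-1.05) and Saa1 (-0.58) fell. The rises were those of the complement genes C3 (1.43), C4b (1.67), Cfb (1.26), Cfi (1.73) and C1s1 (0.80) and of the complement regulators Cd59a (0.69) and Serping1 (0.65), the last lost without wild-type library 1 or 2 or knockout library 1 or 3 (adjusted p of 0.0623 to 0.0748). Fewer cells of a kind and less RNA per cell cannot be told apart in whole tissue, here or in any group below.

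**Figure D2:**
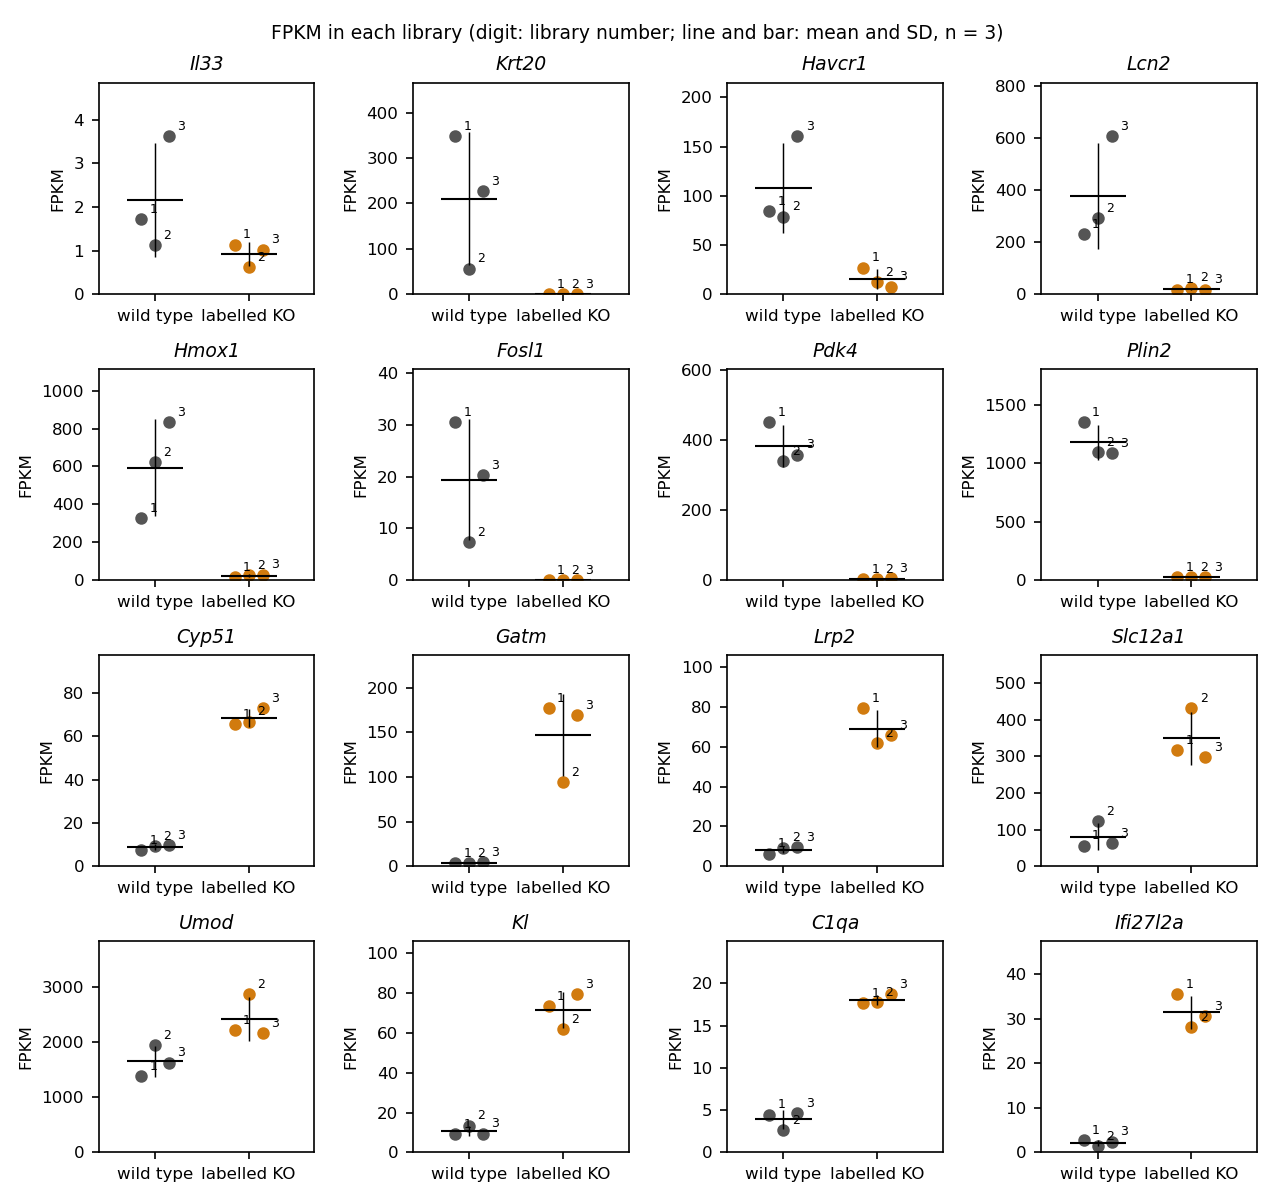
FPKM of 16 genes in each library, with wild type in grey and labelled knockout in orange, the digit giving the library number and the line and bar the mean and SD of 3 libraries. Il33 overlaps between groups, while Krt20, Lcn2, Hmox1, Pdk4 and Plin2 are far lower and Gatm, Lrp2, Kl and C1qa far higher in every labelled knockout.

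Immediate early genes, the transcription factors and feedback regulators that cells switch on within minutes of a stimulus, fell without exception among those tested. All 22 tested members of 24 listed fell (median change -1.92), and 20 of the 22 were closest to the labelled knockouts in wild-type library 2. Klf2 and Ier5 lost their calls without any library except wild-type library 2 (adjusted p of 0.0564 to 0.0872). Egr2 lost its call without wild-type library 1 or any knockout library (0.0726 to 0.113), and Ier3 without wild-type library 1 or 2 (0.0567 and 0.0686). Fosl1, an AP-1 subunit, was at 30.6, 7.30 and 20.3 FPKM in wild type against 0, 0.0516 and 0 FPKM in the labelled knockouts (-4.13 ± 0.43 (SE), adjusted p = 0.000359). Myc was at 18.8, 15.9 and 21.3 FPKM against 2.26, 2.41 and 2.40 FPKM (-2.54 ± 0.12 (SE), adjusted p = 2.21e-05), and Maff, a small MAF partner of stress factors, at 27.46, 12.9 and 17.1 FPKM against 0.690, 0.802 and 0.788 FPKM (-3.45 ± 0.24 (SE), adjusted p = 7.32e-05). No labelled knockout reached the lowest wild type for any of these 3 genes, but Fosl1 reached the level tested through wild type, so it could only be a fall. Fosl1 overlaps Ccdc85b on the other strand, which had a change of -1.57. Junb, Ier2 and Btg2 changed by -2.47, -2.38 and -3.10. The list contains genes that tissue handling can also induce, and the time from death to freezing is not in the labels, so its part in these values was not tested.

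Genes of the integrated stress response, which cells use when protein synthesis, amino acids or mitochondria are disturbed, were mostly lower. Of 21 tested, 13 fell and 3 rose (median -1.19). Atf4, its central transcription factor, went from 108 ± 17.8 to 44.1 ± 4.17 FPKM (-1.26 ± 0.13 (SE), adjusted p = 0.000385). Gdf15, a secreted stress hormone, was at 202, 146 and 121 FPKM in wild type against 4.16, 7.01 and 7.37 FPKM in the labelled knockouts (-4.45 ± 0.24 (SE), adjusted p = 2.64e-05). Psat1 (serine synthesis), Cebpb and Ddit4 changed by -1.80, -2.26 and -1.66, whereas 2 other enzymes of serine and one-carbon metabolism, Shmt2 (1.16) and Phgdh (0.96), rose along with the lipoprotein receptor gene Vldlr (0.82). The call for Phgdh was lost without wild-type library 2 or any knockout library (adjusted p of 0.0564 to 0.0772). Endoplasmic reticulum chaperones moved otherwise, with 9 rises and 2 falls among 17 tested. The 6 that did not pass were Hspa5, Hyou1, Manf, Sdf2l1, Creld2 and Sel1l. Calr (calreticulin) went from 101 ± 18.1 to 280.1 ± 23.9 FPKM, while Xbp1, the factor of the unfolded protein response, fell by a change of -0.91. Among heat shock genes 6 rose and 3 fell of 17, with the small heat shock protein gene Hspb1 going from 105 ± 52.97 to 12.2 ± 1.37 FPKM (-2.84 ± 0.39 (SE), adjusted p = 0.00119).

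In the list of p53 targets and cell death genes, 13 of 30 tested fell and 2 rose (median -0.35). Without knockout library 1 the falls numbered 8. Cdkn1a, which encodes the cell cycle inhibitor p21, was at 63.9, 27.9 and 40.4 FPKM in wild type against 2.11, 2.41 and 2.72 FPKM in the labelled knockouts (-3.65 ± 0.26 (SE), adjusted p = 8.86e-05). The survival genes Bcl2l1 (-1.80) and Mcl1 (-1.06) fell, and so did the death gene Casp8 (-0.79). The 2 that rose were the p53 target Ccng1 (0.63) and the survival gene Bcl2 (0.40). Bcl2 lost its call without any library except wild-type library 3 (adjusted p of 0.0574 to 0.114). Bax, Fas, Gsdmd, Ripk1 and Ripk3 were among the 15 that did not pass, as were the p53 targets Zmat3, Phlda3 and Sesn1. Proliferation genes were few at this level, with 13 of 25 tested. Of these, the replication licensing genes Mcm3, Mcm5 and Mcm6 and the cyclin gene Ccnd1 rose, Ccnd1 from 10.6 ± 5.68 to 53.6 ± 5.52 FPKM and Mcm6 from 4.14 ± 1.25 to 11.1 ± 1.54 FPKM. These rises are 30.8% of the list's tested genes, against 22.2% of all tested genes. The 8 that did not pass included Mcm2, also of licensing, and Pcna, Ccna2, Ccnb2 and Rrm2. The mitotic kinase gene Plk1, at 0.818 ± 0.152 FPKM in wild type, fell by a change of -0.40, a call lost without any library except wild-type library 2 (adjusted p of 0.0628 to 0.143). Mcm3 lost its call without wild-type library 1 or 2 or knockout library 1 or 3 (0.0582 to 0.0759).

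Ferroptosis genes did not move in a single direction. Among drivers of lipid peroxidation 8 rose and 4 fell of 17 tested, and among suppressors 7 rose and 8 fell of 18 (without knockout library 2, 4 suppressors rose). Gpx4, the enzyme that reduces lipid peroxides, was at 284, 351 and 302 FPKM in wild type against 310.5, 376 and 329 FPKM in the labelled knockouts and did not pass (0.12 ± 0.12 (SE), adjusted p = 0.458). Acsl4, which loads membranes with polyunsaturated fatty acids, was at 18.47, 5.18 and 30.8 FPKM against 10.4, 11.1 and 12.2 FPKM (-0.36 ± 0.51 (SE), adjusted p = 0.609). Its wild-type libraries lay on both sides of the labelled knockouts, and without wild-type library 2 it passed as lower (-1.03, adjusted p = 0.0108). Slc7a11, the cystine transporter that feeds glutathione synthesis, stayed below the level tested, at 0.562, 0.375 and 0.947 FPKM in wild type and at most 0.0294 FPKM in the labelled knockouts, and so did Ptgs2, often read as a ferroptosis marker, at 0.223, 0.812 and 0.356 against 0.172, 0.130 and 0.126 FPKM. Besides Plin2, Slc3a2 (-1.19), Mboat1 (-1.01), Nqo1 (-1.01) and Vkorc1l1 (-0.50), the suppressors that fell were Aifm2 (FSP1), from 11.7 ± 0.4998 to 6.03 ± 0.342 FPKM, Gch1, which makes tetrahydrobiopterin, from 5.02 ± 1.84 to 0.287 ± 0.0240 FPKM, and Txnrd1, from 84.4 ± 9.10 to 23.4 ± 1.90 FPKM. Gch1 reached the level tested through wild type, so it could only be a fall. Cybb, among the drivers that rose, reached it through the labelled knockouts, so it could only be a rise. The fatty acid desaturase genes Fads1 and Fads2, which make polyunsaturated fatty acids, rose by 1.46 and 2.43. The suppressor list's Scd1, which makes monounsaturated ones, rose by 1.77.

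Targets of NRF2, the transcription factor that answers oxidative stress, were mostly lower, with 18 falls and 4 rises among 31 tested (median -0.68). Hmox1, which breaks down heme, was at 326, 621 and 835 FPKM in wild type against 17.9, 25.8 and 29.52 FPKM in the labelled knockouts (-4.48 ± 0.33 (SE), adjusted p = 9.93e-05), with wild-type library 1 lowest in its group. Srxn1, which repairs peroxiredoxins, was at 434, 296 and 521 FPKM against 26.55, 28.6 and 28.9 FPKM (-3.81 ± 0.19 (SE), adjusted p = 2.3e-05). Gsr (glutathione reductase) and Taldo1 (pentose phosphate pathway) changed by -1.29 and -1.25. Gclm, Keap1 and the mu class glutathione S-transferase genes Gstm1, Gstm2 and Gstm3 did not pass, Gclm being at 61.1 ± 8.88 and 63.4 ± 7.11 FPKM. In iron handling 7 fell and 5 rose of 22. Trf (transferrin) went from 55.6 ± 19.49 to 9.47 ± 1.91 FPKM and the ferritin heavy chain gene Fth1 from 1979.9 ± 100.3 to 1113 ± 24.02 FPKM, while the transferrin receptor gene Tfrc rose from 14.1 ± 1.84 to 29.99 ± 0.916 FPKM. The iron exporter gene Slc40a1 did not pass, at 5.71 ± 2.03 and 5.48 ± 1.25 FPKM.

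Metallothioneins, small proteins that bind zinc and copper and respond to metals, stress hormones and oxidants, fell strongly. Mt1 was at 559, 303 and 524 FPKM in wild type against 48.55, 54.99 and 50.97 FPKM in the labelled knockouts (-3.09 ± 0.22 (SE), adjusted p = 7.94e-05), and Mt2 at 603, 333 and 600.1 FPKM against 22.03, 26.3 and 28.1 FPKM (-4.23 ± 0.23 (SE), adjusted p = 2.86e-05). Wild-type library 2 had the lowest level of both in its group. Mt2 overlaps the predicted gene Gm45774 on the other strand (-2.57). The promoters of both genes hold the core of the metal response element, TGCACNC, and are shown because the genes stand side by side and moved together; capitals mark each match on either strand. Sequences are from RefSeq (GRCm38.p6).
Mt1, chr8:94178989-94179088, plus strand: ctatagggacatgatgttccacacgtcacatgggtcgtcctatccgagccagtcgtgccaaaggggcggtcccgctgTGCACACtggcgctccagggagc
Mt2, chr8:94172385-94172584, plus strand: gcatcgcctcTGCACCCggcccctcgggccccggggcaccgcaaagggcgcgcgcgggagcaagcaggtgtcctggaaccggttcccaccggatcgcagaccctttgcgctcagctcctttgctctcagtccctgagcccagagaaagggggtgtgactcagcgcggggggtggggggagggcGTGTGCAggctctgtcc
Searched on both strands over 250 bases before the start, the motif was in 4 of the 8 list genes that have a RefSeq promoter and in 12.8% of all tested genes that have one, 13.2% of those that rose and 12.8% of those that fell. Of all RefSeq promoters, 10.4% held it. The other 2 genes with it, the zinc transporter genes Slc30a1 (0.55) and Slc39a5 (2.27), rose. Slc39a5 went from 3.23 ± 0.451 to 19.7 ± 4.90 FPKM, and the call for Slc30a1 was lost without wild-type library 1 or 2 or knockout library 2 or 3 (adjusted p of 0.0581 to 0.0869).

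Lipid genes split between use and synthesis. PPAR-alpha is a nuclear receptor that fatty acids activate in fasting and that switches on fat oxidation, whereas SREBP factors switch on sterol and fatty acid synthesis when cell sterols are low. Among PPAR-alpha targets and fatty acid oxidation genes, 21 of 36 tested fell and 2 rose (median -0.51). Besides Plin2 and Pdk4, Angptl4, an inhibitor of lipoprotein lipase, was at 54.47, 76.4 and 71.1 FPKM in wild type against 6.98, 5.14 and 4.83 FPKM in the labelled knockouts (-3.36 ± 0.17 (SE), adjusted p = 2.21e-05). Ehhadh, of peroxisomal oxidation, went from 599.9 ± 29.7 to 199 ± 16.4 FPKM. No library of one group reached the other for these genes, and 16 of the 21 lower genes were highest in wild-type library 2. Of mitochondrial fatty acid import and oxidation, Cpt1a (-0.77), Cpt2 (-0.92), Acadl (-0.53) and Acadvl (-0.59) fell, Acadm, Hadha, Hadhb, Echs1, Etfa and Etfb did not pass, and Hadh rose (0.41). Ppara itself did not pass (-0.28 ± 0.19 (SE), adjusted p = 0.264), and the coactivator gene Ppargc1a rose (1.28).

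Cholesterol synthesis genes went the other way, with 23 rises and 1 fall among 29 tested (median 1.35). Cyp51, a demethylase of the sterol ring, was at 7.503, 9.33 and 9.93 FPKM in wild type against 65.8, 66.8 and 73.1 FPKM in the labelled knockouts (2.82 ± 0.12 (SE), adjusted p = 1.14e-05). Hmgcs1, which starts the pathway, was at 20.8, 29.9 and 26.2 FPKM against 119, 101 and 107 FPKM (2.06 ± 0.14 (SE), adjusted p = 6.53e-05), and Idi1 and Mvd rose by 2.30 and 2.22. The factor genes Srebf1 (1.32) and Srebf2 (0.36) rose too, Srebf2 with a call lost without wild-type library 1 or 2 or knockout library 1 or 3 (adjusted p of 0.0553 to 0.154). The member that fell was the fatty acid elongase gene Elovl6 (-0.64). Acaca, Acly, Hsd17b7, Pmvk and Tm7sf2 did not pass. Summed over the list, FPKM lay between 206 and 243 in wild type and between 661 and 695 in the labelled knockouts, while the sum over the PPAR-alpha list lay between 6214 and 7496 and between 2733 and 2947.

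**Figure D3:**
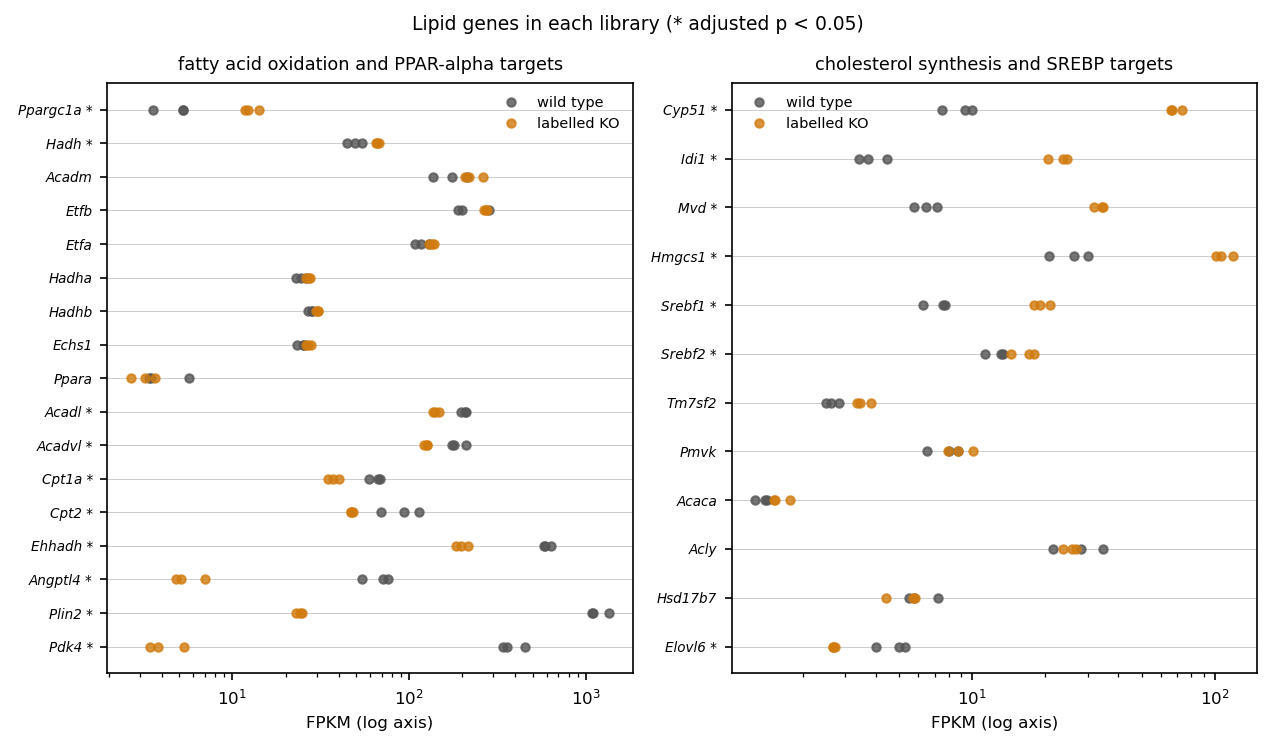
FPKM (log axis) in each library for members named in the text, of fatty acid oxidation with PPAR-alpha targets (left) and of cholesterol synthesis and SREBP targets (right), ordered by change, with wild type in grey, labelled knockout in orange and a star at limma adjusted p under 0.05. Plin2, Pdk4 and Angptl4 are lower in the labelled knockouts on the left, and Cyp51, Hmgcs1, Idi1 and Mvd are higher on the right.

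Central energy genes were modestly higher. Of 35 nuclear genes of oxidative phosphorylation, 17 rose and 0 fell (median 0.31), and of 19 TCA cycle genes 13 rose and 2 fell (median 0.44). Ndufs1, of complex I, went from 15.47 ± 1.22 to 30.6 ± 0.764 FPKM, Sdha from 106 ± 1.39 to 161 ± 1.65 FPKM and Idh3a, of the TCA cycle, from 19.6 ± 3.20 to 39.3 ± 2.67 FPKM. Under median-of-ratios scaling 11 of the 35 rose, where 2959 of all 14513 genes did. None of the 15 mitochondrially encoded genes passed with limma (median 0.07), though mt-Nd1 (-0.40, adjusted p = 0.0728) and mt-Nd4l (0.41, adjusted p = 0.0526) passed, in opposite directions, under some other settings. The TCA cycle genes that fell were the fumarase gene Fh1 (-0.96) and Pcx, which makes oxaloacetate, from 113 ± 12.1 to 61.54 ± 9.56 FPKM. The gluconeogenic gene Pck1, named after its values were seen, was at 504, 1166 and 669 FPKM in wild type against 263, 172 and 177 FPKM in the labelled knockouts (-1.87 ± 0.30 (SE), adjusted p = 0.00257). Glycolysis genes were mixed, with 10 rises and 6 falls of 22. Tpi1 and Pfkm rose by 0.96 and 1.45, and the number of falls was 2 or 3 without wild-type library 1 or 3 or knockout library 1 or 3. Hypoxia targets were mixed as well, with 10 rises and 6 falls of 20, and 5 rises without any of the knockout libraries. The erythropoietin gene Epo was at 0.0247, 0.0165 and 0.0346 FPKM in wild type against 1.38, 0.818 and 1.39 FPKM in the labelled knockouts (1.09 ± 0.14 (SE), adjusted p = 0.000839), a rise from a level near 0 to a low one at a locus that overlaps other genes. Epo reached the level tested through the labelled knockouts, so it could only be a rise.

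Markers of nephron segments, apart from principal cells of the collecting duct, were mostly higher in the labelled knockouts, as the plot of gene lists shows. In the proximal tubule, which reabsorbs most of the filtrate, 26 of 39 tested rose and 4 fell (median 1.06). Lrp2, which encodes the endocytic receptor megalin, was at 6.33, 9.41 and 9.55 FPKM in wild type against 79.49, 61.8 and 66.03 FPKM in the labelled knockouts (2.91 ± 0.17 (SE), adjusted p = 3.42e-05). Aqp1, a water channel, was at 26.8, 66.50 and 88.1 FPKM against 477, 544 and 423 FPKM (3.12 ± 0.38 (SE), adjusted p = 0.000738). The phosphate transporter gene Slc34a1 was at 97.1, 75.6 and 74.2 FPKM against 686, 371 and 551 FPKM (2.66 ± 0.22 (SE), adjusted p = 0.000149). All 3 genes were higher in every labelled knockout than in any wild type. The monocarboxylate transporter gene Slc5a8, the cystine transporter gene Slc3a1 and Acmsd, of tryptophan breakdown, rose by 2.09, 1.53 and 3.79. The 4 that fell were Pck1, Slc9a3 (-0.63), Cyp4b1 (-0.65) and Kap (-0.53). The call for Cyp4b1 was lost without any library except knockout library 1 (adjusted p of 0.0694 to 0.135) and that for Kap without any except wild-type library 3 (0.0864 to 0.173). Among those that did not pass were Slc5a2, the glucose transporter of the early segment, and Slc22a6, an organic anion transporter.

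**Figure D4:**
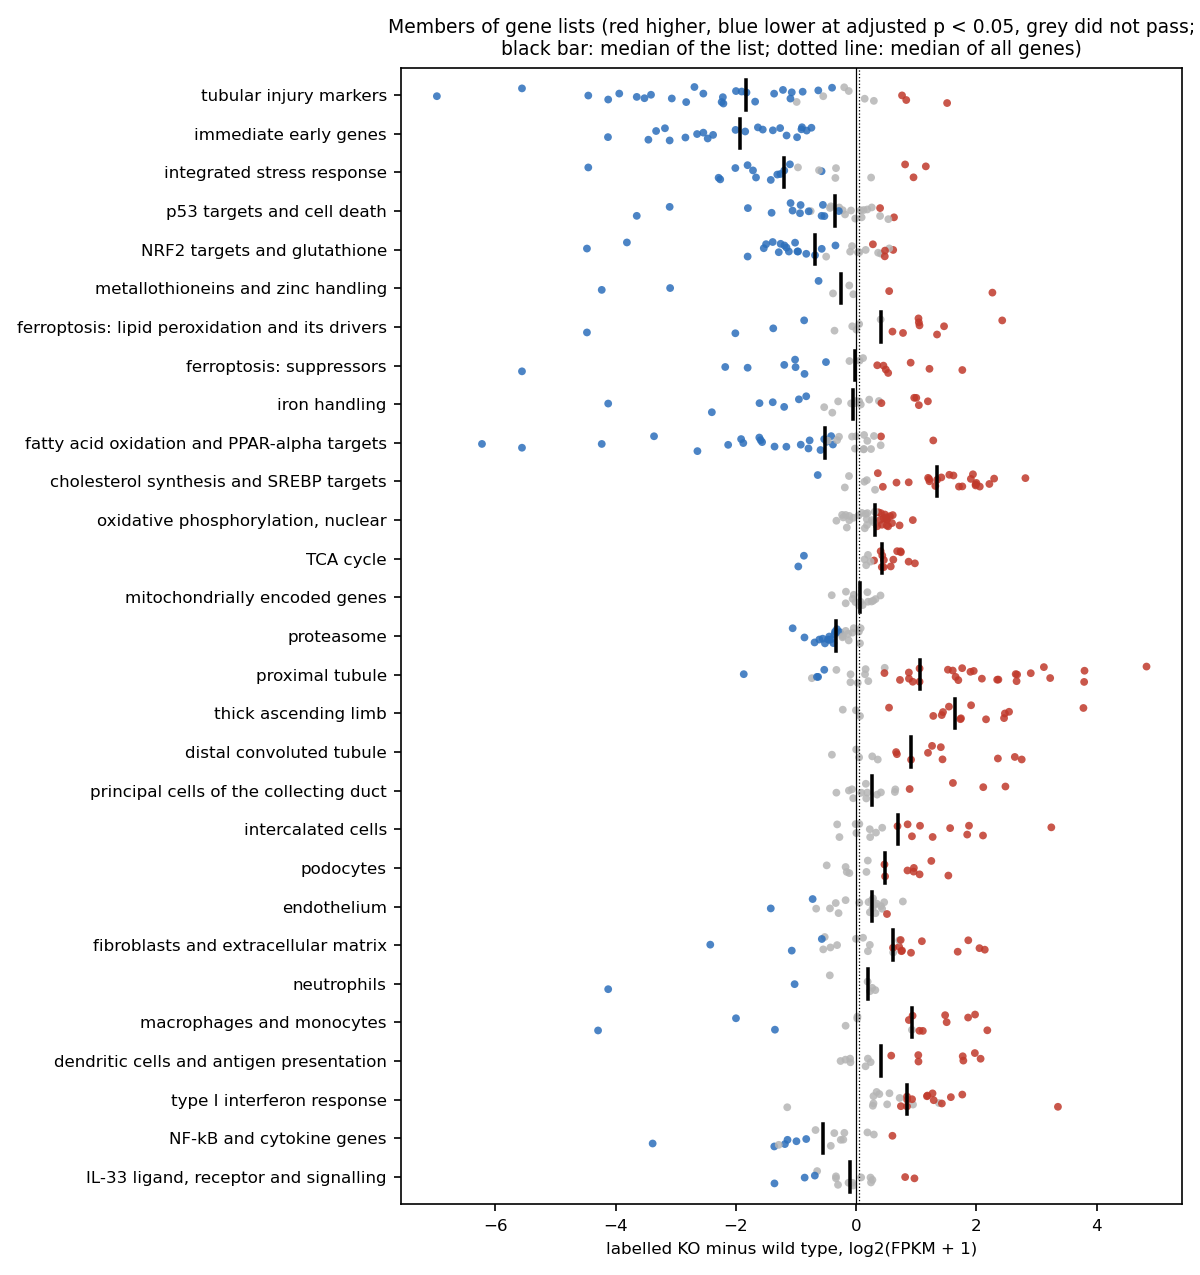
Change (labelled knockout minus wild type, log2(FPKM + 1)) of each tested member of 29 gene lists, red where higher and blue where lower at limma adjusted p under 0.05, grey otherwise, with the list's median as a black bar and the median of all genes (0.04) as a dotted line. The medians of the injury (-1.82) and immediate early (-1.92) lists lie left of 0, and those of cholesterol synthesis (1.35) and the thick ascending limb (1.64) right of it.

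The thick ascending limb, the segment that furosemide acts on, had 13 rises and 0 falls among 16 tested (median 1.64). Slc12a1, which encodes the transporter that furosemide blocks, was at 56.4, 123 and 63.8 FPKM in wild type against 318, 432 and 299 FPKM in the labelled knockouts (2.16 ± 0.29 (SE), adjusted p = 0.00105). Egf, which this segment secretes into urine, was at 27.6, 38.7 and 24.46 FPKM against 146, 209 and 155 FPKM (2.46 ± 0.19 (SE), adjusted p = 0.000127). The prostaglandin receptor gene Ptger3, the claudin gene Cldn10 and the calcium-sensing receptor gene Casr rose by 2.48, 1.91 and 1.45. Of the 13 higher genes, 12 were lowest in wild-type library 1. Umod, the most abundant of them, rose least (0.55 ± 0.17 (SE), adjusted p = 0.0335), and its call was lost without any library except wild-type library 2 (adjusted p of 0.0578 to 0.116). In the distal convoluted tubule 10 of 15 tested rose and 0 fell (median 0.91). Kl, which encodes the anti-ageing protein Klotho, a co-receptor for the phosphate hormone FGF23, was at 9.28, 13.47 and 9.48 FPKM against 73.50, 61.98 and 79.6 FPKM (2.64 ± 0.16 (SE), adjusted p = 4.13e-05). The calcium exchanger gene Slc8a1 and the calcium-binding protein gene Pvalb rose by 2.36 and 2.76, while the sodium chloride transporter gene Slc12a3 did not pass, at 83.2 ± 11.97 and 100.1 ± 10.03 FPKM.

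Further along, 10 of 19 tested intercalated cell genes rose and 0 fell (median 0.69). The largest was the anion exchanger gene Slc4a1, at 0.310, 0.586 and 0.733 FPKM in wild type against 15.52, 12.9 and 12.48 FPKM in the labelled knockouts (3.25 ± 0.15 (SE), adjusted p = 1.69e-05), which red cell precursors express as well. The proton pump subunit gene Atp6v1b1 and the water channel gene Aqp6 rose by 1.56 and 2.11. Of 16 principal cell genes 4 rose (25.0%, near the 22.2% of all tested genes) and 0 fell (median 0.27). Those that rose were Npnt (1.61), Avpr2, the vasopressin receptor gene (2.12), Hsd11b2 (0.89) and Aqp4 (2.48, adjusted p = 0.0526 without wild-type library 2). The 12 that did not pass included Aqp3, Scnn1a, Scnn1b, Scnn1g, Fxyd4 and Sgk1. Aqp2, the vasopressin-controlled water channel, was at 139, 396 and 178 FPKM against 317, 377 and 317 FPKM and did not pass (0.65 ± 0.34 (SE), adjusted p = 0.171). Leaving out wild-type library 2 made it pass (1.09, adjusted p = 0.00192). Wild-type library 2 was the highest of all 6 libraries for Aqp2. In podocytes, the filter cells of the glomerulus, 8 of 14 tested rose and 0 fell, including the collagen IV genes Col4a3 and Col4a4 (1.06 and 0.96). In the thin limbs 5 rose and 1 fell of 10, with 8 rises without wild-type library 3 and 3 without knockout library 1 or 2. The one that fell, the claudin gene Cldn4, was at 303, 87.4 and 169.5 FPKM against 12.3, 14.02 and 11.6 FPKM (-3.61 ± 0.38 (SE), adjusted p = 0.0004), and the urea transporter gene Slc14a2 rose (2.60) while its wild-type libraries ranged from 0.0257 to 11.7 FPKM, a call lost without wild-type library 2 or any knockout library (adjusted p of 0.0501 to 0.111).

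In the list of renin and juxtaglomerular cell genes, which also holds other genes of the renin-angiotensin system, 7 rose and 1 fell among 8 tested of 12 listed. Ren1, which encodes renin, was at 52.3, 57.3 and 51.6 FPKM in wild type against 100.1, 133 and 151 FPKM in the labelled knockouts (1.22 ± 0.15 (SE), adjusted p = 0.000737). The angiotensin receptor gene Agtr1a was at 2.46, 2.79 and 2.78 FPKM against 11.05, 8.14 and 11.6 FPKM (1.60 ± 0.14 (SE), adjusted p = 0.000206). Neither gene overlapped between groups. The peptidase genes Enpep and Mme rose by 1.69 and 1.75, and the member that fell was Akr1b7 (-0.97), named after its values were seen. Among growth factors and EGF receptor genes 13 rose and 6 fell of 24 (8 rises without knockout library 2). Fgf1, made in the tubule, rose from 10.6 ± 1.76 to 57.3 ± 3.52 FPKM, whereas Areg, an EGF receptor ligand of injured epithelium, was at 10.01, 1.69 and 2.39 FPKM in wild type but is listed at 0 in all labelled knockouts. Areg reached the level tested through wild type, so it could only be a fall. In vitamin D metabolism Cyp27b1, which activates the vitamin in the proximal tubule, was at 9.81, 15.9 and 15.7 FPKM against 0.761, 0.266 and 0.693 FPKM (-3.22 ± 0.21 (SE), adjusted p = 6.15e-05).

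Immune transcripts did not move as one block. Of the genes of the IL-33 pathway, the adaptor gene Myd88 (-0.85), the kinase gene Irak2 (-0.69) and the NF-kB subunit gene Rela (-1.36) fell, and Mapk14 (0.82) and the inhibitory receptor gene Sigirr (0.97) rose, together 3 falls and 2 rises among 16 tested. These shares, 18.8% lower and 12.5% higher, compare with 16.8% and 22.2% of all tested genes, so the list passed no more often than genes at large. The 11 that did not pass included Traf6, Irak1, Irak4, Map3k7 and Nfkb1. Without wild-type library 2, 6 fell. Rela was at 48.1, 26.4 and 33.47 FPKM in wild type against 12.7, 13.9 and 12.52 FPKM in the labelled knockouts (-1.36 ± 0.20 (SE), adjusted p = 0.00151), with the smallest wild-type value in library 2. Among NF-kB targets and cytokines 6 fell and 1 rose of 16 tested (median -0.55), while Tnf, Il1b, Il6 and Ccl5 were below the level tested. Cxcl1, a chemokine that draws neutrophils, was at 24.3, 9.75 and 7.97 FPKM against 0.305, 0.305 and 0.261 FPKM (-3.38 ± 0.35 (SE), adjusted p = 0.000356), and the NF-kB inhibitor gene Nfkbia at 35.96, 21.97 and 26.53 FPKM against 11.6, 12.6 and 10.7 FPKM (-1.18 ± 0.17 (SE), adjusted p = 0.0015). Cxcl1 reached the level tested through wild type, so it could only be a fall. Relb, Nfkb2, Nfkbiz and Birc3 fell by changes of -1.36, -0.99, -1.14 and -0.83. Ccl2, Icam1, Cxcl10 and Tnfaip3 did not pass, and the rise was that of Cxcl16 (0.60), lost without any library except wild-type library 3 (adjusted p of 0.0796 to 0.121).

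The promoters of 3 NF-kB list genes that fell are shown with their matches to a form of the NF-kB site (GGG, 2 free bases, then TTTCC), in capitals on either strand (RefSeq, GRCm38.p6).
Cxcl1, chr5:90891120-90891219, plus strand: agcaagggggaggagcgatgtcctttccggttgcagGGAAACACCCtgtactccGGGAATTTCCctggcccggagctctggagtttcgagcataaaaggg
Nfkbia, chr12:55492648-55492747, minus strand: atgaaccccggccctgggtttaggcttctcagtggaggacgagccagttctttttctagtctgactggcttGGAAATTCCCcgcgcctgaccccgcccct
Nfkb2, chr19:46304637-46304736, plus strand: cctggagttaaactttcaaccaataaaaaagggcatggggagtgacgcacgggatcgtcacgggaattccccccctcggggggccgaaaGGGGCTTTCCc
The Cxcl1 stretch holds 2 matches and the others 1 each. Over 250 bases before the start, 6 of the 11 tested list genes that have a RefSeq promoter held the motif (54.5%), against 1.74% of all tested genes that have one and 1.41% of all 32851 RefSeq promoters. Of the 6, Cxcl1, Nfkbia and Nfkb2 fell and Cxcl2, Csf1 and Tnfaip3 did not pass. Over the whole comparison the motif was held by 1.76% of genes that fell and 1.72% of genes that rose.

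Type I interferon response genes stood opposite to the NF-kB list, with 13 rises and 0 falls among 24 tested (median 0.85). Ifi27l2a was at 2.73, 1.44 and 2.41 FPKM in wild type against 35.47, 28.1 and 30.6 FPKM in the labelled knockouts (3.36 ± 0.17 (SE), adjusted p = 2.5e-05). Bst2, which tethers viruses to the cell, was at 7.99, 7.99 and 13.6 FPKM against 32.9, 27.3 and 31.7 FPKM (1.58 ± 0.20 (SE), adjusted p = 0.00079), and Cmpk2 and Rsad2 rose by 1.43 and 1.29. For 12 of the 13, wild-type library 3 was closest to the labelled knockouts. The count depended on single libraries: it was 7 and 6 without wild-type library 1 and 2, 22 without wild-type library 3, and 6 and 7 without knockout library 1 and 3. Over all 14513 genes, the same settings in that order gave 2779, 3125, 3851, 2128 and 2127 rises, against 3226 with every library. Isg15, at 1.22, 1.92 and 8.17 FPKM in wild type against 11.4, 7.64 and 8.77 FPKM in the labelled knockouts, likewise had wild-type library 3 closest and did not pass (1.38 ± 0.48 (SE), adjusted p = 0.0525). Promoters of 3 members that rose are shown with their matches to a form of the interferon-stimulated response element (GAAA, 2 free bases, then GAAAC), in capitals on either strand (RefSeq, GRCm38.p6).
Ifit3, chr19:34583344-34583443, plus strand: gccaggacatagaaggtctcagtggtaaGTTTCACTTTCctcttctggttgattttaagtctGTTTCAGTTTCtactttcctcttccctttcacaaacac
Bst2, chr8:71537548-71537647, minus strand: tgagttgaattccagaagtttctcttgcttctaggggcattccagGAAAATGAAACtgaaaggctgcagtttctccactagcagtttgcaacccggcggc
Oas1a, chr5:120907526-120907625, minus strand: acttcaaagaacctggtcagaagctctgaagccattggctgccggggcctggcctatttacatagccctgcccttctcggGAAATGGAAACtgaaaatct
Of 17 tested list genes that have a RefSeq promoter, 6 held the motif (35.3%), against 0.806% for all tested genes that have one, 0.685% of all RefSeq promoters, 1.05% for genes that rose and 0.647% for genes that fell. Of those 6, Ifit3 (1.77), Bst2 and Oas1a (1.18) rose and Isg15, Ifit1 and Stat2 did not pass. Ifit3 lost its call without wild-type library 2 or any knockout library (adjusted p of 0.0570 to 0.0849), and Oas1a without any library except wild-type library 3 (0.105 to 0.138).

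Markers of tissue macrophages and of antigen presentation rose, while markers tied to injury in the same list fell. Of 16 macrophage and monocyte genes tested, 9 rose and 3 fell (median 0.93). The complement gene C1qa was at 4.46, 2.64 and 4.67 FPKM in wild type against 17.7, 17.7 and 18.7 FPKM in the labelled knockouts (1.98 ± 0.17 (SE), adjusted p = 0.000183), Csf1r, the growth factor receptor of macrophages, at 1.63, 2.74 and 3.82 FPKM against 11.7, 12.7 and 12.1 FPKM (1.86 ± 0.21 (SE), adjusted p = 0.00049), and Adgre1 (F4/80) at 0.163, 0.118 and 0.198 FPKM against 1.40, 1.69 and 1.44 FPKM (1.11 ± 0.11 (SE), adjusted p = 0.000296). All 3 were separate between groups, but Adgre1 reached the level tested through the labelled knockouts, so it could only be a rise. The genes that fell were Cd14 (134, 88.4 and 97.7 FPKM against 4.72, 3.49 and 5.16 FPKM), the osteopontin gene Spp1 and Cd68, and injured tubules express Spp1 and Cd14 too. Summed without Spp1, which takes most of the total, the list stood at 130.3 to 187 FPKM in wild type and 113 to 119 FPKM in the labelled knockouts. Of 14 genes of antigen presentation tested 7 rose and 0 fell. Class II genes made up most of them, with Cd74, the invariant chain, at 31.99, 15.7 and 21.8 FPKM against 86.7, 86.2 and 98.8 FPKM (1.98 ± 0.22 (SE), adjusted p = 0.000525) and H2-Aa, H2-Ab1 and H2-Eb1 rising by 1.78, 1.77 and 2.07, and B2m, the light chain of class I, rose by 0.58, a call lost without wild-type library 2 or knockout library 1 or 3 (adjusted p of 0.0507 to 0.106). H2-K1, H2-D1, Tap1 and Psmb8, of class I, did not pass. Erythroid genes rose in the same libraries, 6 of 9 tested, with Hbb-bs at 295, 223 and 365 FPKM against 752, 629 and 516 FPKM and the list's sum at 877 to 1224 FPKM in wild type and 1517 to 2361 FPKM in the labelled knockouts. The 6 include Slc4a1, also an intercalated cell gene. Hba-a1 lost its call without wild-type library 1 or 2 or knockout library 1 or 2 (adjusted p of 0.0658 to 0.0874). Hba-a2 lost it without any library except knockout library 3 (0.056 to 0.118). Whether blood left in the kidney has a part in the immune transcripts was not tested.

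Neutrophil transcripts were scarce in both groups. Of the 20 neutrophil genes found, 13 were below the level tested, among them Ly6g, Mpo, Elane, Cxcr2 and Itgam, and Padi4 was at most 0.022 FPKM in any library. Lcn2 and Il1r2 fell (-1.02 for Il1r2, adjusted p = 0.0509 without wild-type library 1), but injured tubules make Lcn2 as well. Il1r2 reached the level tested through wild type, so it could only be a fall. The calprotectin genes S100a8 and S100a9 did not pass, S100a9 being at 3.84, 1.23 and 3.003 FPKM in wild type against 2.45, 4.61 and 2.92 FPKM in the labelled knockouts (0.27 ± 0.30 (SE), adjusted p = 0.513). Summed without Lcn2, the neutrophil list was at 4.18 to 11.8 FPKM in wild type and 7.07 to 9.48 FPKM in the labelled knockouts. Few genes of the lymphoid and mast cells in which IL-33 signals reached the level tested. Of type 2 immunity and innate lymphoid genes 6 of the 19 found were tested, and Il4, Il5, Arg1 and Retnla were below the level. Il4ra (-1.01), Areg (-2.22) and Rora (-0.38) fell, all 3 of which tubule cells can express, and Rora lost its call without any library except wild-type library 3 (adjusted p of 0.0769 to 0.175). Areg reached the level tested through wild type, so it could only be a fall. Foxp3 and Ctla4 of regulatory T cells and Tpsb2 and Ms4a2 of mast cells were below the level. Of 17 T, B and NK cell genes Cd8a alone was tested, at 0.0568, 0.107 and 0.0711 FPKM against 1.05, 0.873 and 1.15 FPKM (0.91 ± 0.11 (SE), adjusted p = 0.000672). It reached the level tested through the labelled knockouts, so it could only be a rise; with no filter on low values 5 of the 17 rose and 0 fell. Of 8 tested plasma cell genes 4 rose and 3 fell. The immunoglobulin genes Ighm, from 0.287 ± 0.0945 to 2.63 ± 0.138 FPKM, Igkc, from 7.11 ± 1.14 to 16.3 ± 4.38 FPKM, and Igha (1.08) rose with Jchain (0.60), whereas Sdc1 (-1.21), Xbp1 (-0.91) and Derl3 (-0.80) fell. Ighm, too, reached the level tested through the labelled knockouts, so it could only be a rise. Calls were lost without 1 library for Igha (wild-type library 2 or 3 or knockout library 2 or 3, adjusted p of 0.0546 to 0.0569), Jchain (knockout library 2 or 3, 0.0541 and 0.0703) and Derl3 (any library except wild-type library 1, 0.0881 to 0.113).

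Collagen genes rose from low levels. In the list of fibroblasts and extracellular matrix 11 rose and 3 fell of 24 tested (median 0.62). Col3a1 was at 1.002, 0.712 and 2.52 FPKM in wild type against 8.04, 7.77 and 9.88 FPKM in the labelled knockouts (2.05 ± 0.26 (SE), adjusted p = 0.000835), and Col6a1 at 1.14, 1.19 and 2.27 FPKM against 10.1, 9.97 and 9.73 FPKM (2.14 ± 0.17 (SE), adjusted p = 0.000139). Of the 11, 10 were lowest in wild-type library 2. Ccn2 (-1.07) and Tgfb1 (-0.57) were among the genes that fell, Tgfb1 with a call lost without wild-type library 1 or any knockout library (adjusted p of 0.0565 to 0.112). The activated fibroblast genes Acta2, Tagln, Timp1 and Tnc did not pass. Endothelial genes hardly moved, with 1 rise (Esam, 0.51) and 2 falls (Nos3, -0.72, and Igfbp3, -1.42) among 21 tested. Without wild-type library 3, 6 rose, and without wild-type library 2, 5 fell. Esam lost its call without any library except wild-type library 3 (adjusted p of 0.0565 to 0.104), Igfbp3 without wild-type library 1 or 3 or knockout library 2 (0.0534 to 0.059), and Nos3 without knockout library 3 (0.0518). Pecam1, Cdh5, Kdr and Flt1, which define the endothelium, did not pass.

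Of 27 proteasome subunit genes 16 fell and 0 rose (median -0.34), with 10 falls without knockout library 1 or 3. Psmd4 was at 60.05, 67.7 and 51.7 FPKM in wild type against 27.8, 29.6 and 26.97 FPKM in the labelled knockouts (-1.05 ± 0.11 (SE), adjusted p = 0.000413), the largest of the changes. In the lysosome 11 of 26 tested rose and 3 fell. The protease genes Ctsd and Ctsl went from 765 ± 128 to 327 ± 26.9 and from 198 ± 28.9 to 76.52 ± 8.24 FPKM, whereas the glycosidase genes Hexa and Glb1 rose by 0.92 and 1.09. Cytochrome P450 genes were split, with 8 rises and 8 falls of 26. Cyp2a5 was at 914, 843 and 599 FPKM against a mean of 102 ± 5.09 FPKM (-2.91 ± 0.16 (SE), adjusted p = 2.72e-05) and Cyp2j5, which androgens keep high, at 116, 140.2 and 116 FPKM against 374, 354 and 344 FPKM (1.52 ± 0.10 (SE), adjusted p = 6.53e-05). Genes that androgens raise in male kidney were likewise mixed, with 9 rises and 5 falls of 18, and so were the 10 female-biased genes, with 4 rises and 1 fall. Of clock genes and their outputs 7 rose and 5 fell of 18 (4 rises without knockout library 1 or 2, and 3 falls without wild-type library 1 or knockout library 1 or 3). The output factor genes Hlf and Tef rose by 1.56 and 0.92. The hour of sampling is not in the labels.

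Markers of other organs were low or shared with kidney. Of the 15 colon genes found, 8 were tested, with 3 falls (Krt20, Lgals4 and Cldn7, all of which tubules express) and the rise of Guca2b, which lost its call without knockout library 1 (adjusted p = 0.0503), and Muc2, Slc26a3 and Car1 were below the level tested. Summed without Krt20, the colon list was at 228 to 314 FPKM in wild type and 307 to 341 FPKM in the labelled knockouts. None of the 7 urothelial genes passed with limma, but their sum ranged from 5.68 to 36.6 FPKM in wild type and from 2.87 to 25.8 FPKM in the labelled knockouts, with wild-type library 3 and knockout library 1 highest. Adipose genes included falls of the lipid droplet genes Cidec (-2.72) and Plin4 (-2.91), while Adipoq, Lep and Plin1 were below the level tested. Of the liver list 5 rose and 1 fell of 9 tested. Serpina1a (1.32), which kidney also expresses, was among the rises, and Alb did not pass.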

How the data were processed

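The authors deposited FPKM values per gene for the 6 libraries, per the file headers, in a single table with 31719 genes, made from poly(A)-selected, strand-specific libraries per the labels' protocols. FastQC, cutadapt, HISAT2, StringTie, DESeq2 and edgeR are named in the submitters' processing notes without versions or roles. Build, annotation and depth were not given in the sources used here. The 3 wild-type columns are headed CIAKI with a number, not with the samples' full titles, and were matched by the table they stand in and that number, which leaves some doubt.

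From these values, log2(FPKM + 1) was fitted by limma (version 3.58.1, R 4.3.3), using lmFit and a trended eBayes, over the 14513 genes whose mean FPKM reached 0.5, and p-values were adjusted by Benjamini-Hochberg over all of them, with a threshold of 0.05. FPKM are not counts, so no count model was used. The script was tested on simulated data. The genes named were the 15 largest rises and falls among called genes averaging at least 1 FPKM and no overlap between groups, without predicted genes, clone names and mitochondrially encoded genes, up to 5 members with the smallest p from each of 63 gene lists, every called member where 5 or fewer were called, and a fixed set. Other genes named were chosen after their values were seen. Some genes that the rule picks are not reported here. The gene lists and the rule were chosen with earlier results of these data known. Lists share members, such as Plin2, Lcn2 and Fga. Promoters came from RefSeq (GRCm38.p6) and were searched on both strands over 250 bases before the start. Alternatives covered the pseudocount, the filter on low values, scaling, eBayes settings, array weights, the replicate block and leaving out each library.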

Additional observations from a re-analysis of the deposited data

How the results depend on the processing

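Over all alternatives to the settings used, 0 of the 5671 called genes changed sign where both settings called them, and the total of calls ran from 3678 (without knockout library 1) to 6249 (quantile normalization). Leaving out a library in turn gave 2127 to 3851 genes higher and 1550 to 2670 lower, with the fewest when a labelled knockout was left out. A minimum change of 2-fold left 897 higher and 639 lower. For Il33 the change ran from -0.89 to -0.33 when libraries were left out, and the gene passed without wild-type library 2 (-0.89), after quantile normalization (-0.74, adjusted p = 0.0395), and in a fit blocked on replicate number (-0.65, adjusted p = 0.0408); the cause was not tested. Deviations from the group mean correlated at -0.0144, 0.134 and -0.00166 for same-numbered libraries, and at -0.125 to 0.13 for differently numbered ones. With 3 libraries per group these values cannot show whether the replicate numbers pair the samples. With the replicate block 3065 genes were higher and 2271 lower. Of 246 named genes that passed, 0 to 20 lost their call in a given setting, most without a filter on low values, and 0 reversed. The median change of all genes ran from -0.02 to 0.10 over the settings. Depth is unknown, 3 libraries per group limit the precision, and the labels do not separate the knockout allele from other differences between the mouse lines.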

Other observations

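The gene families here were chosen after their values were seen. Of 7 tested genes of the Hsd3b family, which make and break down steroids, 6 rose and 1 fell. Hsd3b2 and Hsd3b5 reached the level tested through the labelled knockouts, so they could only be rises. Hsd3b4 and the predicted gene Gm10681 had almost the same value in every library, Gm10681 being at 1.17, 1.82 and 1.90 FPKM in wild type against 181, 194 and 204 FPKM in the labelled knockouts, so these copies may share reads. Hsd3b7, which acts on bile acid precursors, fell (-0.62). Of 8 tested Nat8 genes, N-acetyltransferases of kidney and liver, 5 rose and 1 fell. Nat8f6 went from 7.20 ± 1.89 to 73.9 ± 19.52 FPKM and Nat8f5 from 46.7 ± 11.00 to 22.4 ± 3.56 FPKM. Nat8 itself did not pass, at 118 ± 25.03 and 102 ± 13.4 FPKM. Among 11 keratins tested 4 fell (Krt20, Krt18, Krt8 and Krt23) and Krt10 rose (0.55), while Krt7, at 20.8 ± 9.05 and 22.3 ± 2.93 FPKM, did not pass.

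Solute carriers were mixed, with 113 rises and 41 falls among 255 tested (median 0.33). The lowest changes were those of Slc25a22, a mitochondrial glutamate carrier (-3.24), Slc20a1, a phosphate transporter (-3.02), and Slc25a25 (-2.97). Slc25a22 was at 43.51, 48.7 and 28.3 FPKM in wild type against 3.33, 2.95 and 3.46 FPKM in the labelled knockouts. After Slc7a12, the highest were Slc10a2, which takes up bile acids (3.27), Slc4a1 (3.25) and Slc7a13, an amino acid transporter of the late proximal tubule (3.23).

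Nnt, which encodes the mitochondrial transhydrogenase that makes NADPH, is listed under 2 gene models. The first was at 4.42, 0.261 and 3.35 FPKM in wild type against 38.8, 39.04 and 36.02 FPKM in the labelled knockouts. The other was at 2.75, 13.3 and 5.66 FPKM in wild type but is listed at 0 in all labelled knockouts. Summed, they came to 7.16, 13.6 and 9.01 FPKM against 38.8, 39.04 and 36.02 FPKM. As background, the C57BL/6J substrain carries a deletion in Nnt and other C57BL/6 substrains do not; the labels name no substrain, and its part in these values was not tested.

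Of the 5 tested genes on each side of Il33, 4 rose, namely A1cf (0.97), Asah2 (0.51), Cd274 (0.49) and 9930021J03Rik (0.33), Gldc fell (-1.45), and 5 did not pass.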
